A study of Mus musculus with 42 samples.

Results

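The liver breaks down surplus pyrimidines and purines by separate routes, and 8 genes that encode enzymes of these routes were examined across 42 mouse liver transcriptomes. The members, Dpyd, Dpys, Upb1, Upp2, Xdh, Uox, Pnp and Gda, were chosen by name for their role from a table of 54446 genes. Earlier results of these data were known when they were chosen, so shares of members called are descriptions in every comparison. Of the 8, 7 had enough counts to be tested among the 15574 genes tested, and Pnp did not.

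In pyrimidine breakdown, uridine phosphorylase (Upp2) releases uracil from uridine, dihydropyrimidine dehydrogenase (Dpyd) reduces uracil and thymine in the rate-limiting step, dihydropyrimidinase (Dpys) opens the ring, and beta-ureidopropionase (Upb1) yields beta-alanine or beta-aminoisobutyrate. In purine breakdown, purine nucleoside phosphorylase (Pnp) releases hypoxanthine and guanine, guanine deaminase (Gda) forms xanthine, xanthine dehydrogenase (Xdh) forms urate, and urate oxidase (Uox) oxidises urate on the way to allantoin. Uox is active in mice and lost in humans, and the dihydropyrimidine enzymes are strongly expressed in hepatocytes, where they also clear the drug fluorouracil.

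Liver RNA was sequenced from female APOE*3-Leiden mice, a transgenic line that carries a human apolipoprotein E variant and becomes hyperlipidemic on rich diets. The 16 WTD mice ate a semi-synthetic Western-type diet with 15% cocoa butter, 40.5% sucrose and 1% cholesterol for 32 weeks after a run-in on the same diet, from an age of 8 to 14 weeks, and 0.05% cholate was added from week 22. The 16 WTD+Atorvastatin mice ate this diet, cholate included, with the cholesterol synthesis inhibitor atorvastatin mixed in at 3.0 mg/kg/day and, from week 5, 4.5 mg/kg/day. The 10 Chow mice carried the same transgene and were kept on a maintenance chow as a reference, for which the labels name no cholate, drug or age. Chow and the semi-synthetic WTD differ in their whole composition, so that no single ingredient can be told apart.

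The Chow mice carry another prefix in their animal numbers than both WTD groups, so that any difference between those series of animals cannot be told apart from the diet. Total counts per library ran from 15661381 to 36224054. In 8 libraries (3 Chow, 4 WTD, 1 WTD+Atorvastatin) over 20% of the genes with a group mean of 1 to 2 CPM (the usual counts-per-million unit, here with library sizes scaled by TMM) had no count, and values without these libraries are given where they change a call. None of the 7 measured hepatocyte markers was at 0 throughout a group, with summed medians of 132200 CPM in Chow, 72790 CPM in WTD and 113500 CPM in WTD+Atorvastatin. Albumin (Alb) made up most of this sum, with medians of 91340, 48530 and 83830 CPM in the same order of groups. In whole liver RNA, fewer cells of a type and less RNA per cell cannot be told apart.

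The windows of 250 bases before the annotated start (RefSeq, GRCm38.p6, plus strand, 5′ to 3′) are shown for Dpyd, Upb1 and Upp2, the 3 members with the largest differences between WTD and Chow. The promoter table held 6 of the 8 members. Capitals mark matches to the CCAAT box (CCAAT) or the TATA box (TATAAA) on either strand. The windows lie at chr3:118561930-118562179 for Dpyd, chr10:75406661-75406910 for Upb1 and chr2:58754934-58755183 for the downstream start of Upp2, which also has an upstream start.
Dpyd: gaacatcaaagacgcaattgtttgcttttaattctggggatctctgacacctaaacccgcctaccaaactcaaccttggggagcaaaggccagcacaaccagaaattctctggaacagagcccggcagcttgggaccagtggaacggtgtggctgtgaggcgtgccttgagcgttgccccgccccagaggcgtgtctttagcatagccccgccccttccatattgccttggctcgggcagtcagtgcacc
Upb1: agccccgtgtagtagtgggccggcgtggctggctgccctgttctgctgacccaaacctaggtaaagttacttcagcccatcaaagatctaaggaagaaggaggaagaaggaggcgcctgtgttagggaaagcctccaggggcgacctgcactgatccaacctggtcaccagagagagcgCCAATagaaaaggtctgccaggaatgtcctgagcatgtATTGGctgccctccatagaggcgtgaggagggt
Upp2: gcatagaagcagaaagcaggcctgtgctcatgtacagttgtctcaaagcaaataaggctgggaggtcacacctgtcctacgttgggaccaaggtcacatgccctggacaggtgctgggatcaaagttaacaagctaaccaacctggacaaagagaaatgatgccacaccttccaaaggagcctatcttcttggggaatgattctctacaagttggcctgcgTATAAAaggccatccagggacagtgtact

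The downstream Upp2 window held TATAAA starting 29 bases before the start site, a motif found in 12.4% of the 32851 windows of the table. The upstream Upp2 window, not printed here, held no TATAAA but CCAAT starting 73 bases before its start, with a GC content of 73.2%. The Upb1 window held CCAAT starting 71 bases before its start and the reverse form ATTGG 33 bases before it, against 33.8% of all windows with at least 1 match. The Dpyd window held no match to any of the 7 motifs searched. Beside the TATA and CCAAT boxes these were the E-box CACGTG (6.0% of all windows), the D-box TTANGTAA (2.1%), the HNF4A motif CAAAGTCCA (0.4%), the C/EBP motif TTGCNNAA (9.6%) and the antioxidant response element TGACNNNGC (10.2%). GC content was 56.4% for Dpyd and Upb1 and 49.2% for the downstream Upp2 start, against a median of 52.4% for all windows. A match describes these letters only, and the counts do not tell which Upp2 start was used.

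In the GENCODE vM21 annotation of GRCm38, the genes of the uracil route lie at chr3:118562129-119432924 on the plus strand (Dpyd), chr15:39768487-39857470 on the minus strand (Dpys), chr10:75401115-75441679 on the plus strand (Upb1) and chr2:58567298-58792971 on the plus strand (Upp2). The purine genes lie at chr17:73883895-73950196 on the minus strand (Xdh), chr3:146570426-146632305 on the plus strand (Uox), chr14:50931082-50965237 on the plus strand (Pnp) and chr19:21391307-21473445 on the minus strand (Gda). All are protein-coding. Upb1, Uox and Dpys overlap genes on the opposite strand (Gucd1, Dnase2b and Gm16291), and the strand setting of the counting is not given in the sources used here. Of 811 protein-coding genes inside an opposite-strand gene only, 222 had 0 counts, so most such genes had some counts. This does not tell whether Upb1, Uox or Dpys lost reads in the overlaps.

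Per kilobase of exon, Uox was the most abundant member in each group, with medians of 301.9 CPM per kb in Chow, 299.5 in WTD and 373.8 in WTD+Atorvastatin. Its lowest mouse lay above the highest mouse of every other member in each of the 3 groups. In Chow the order continued with Dpys at 125.6, Dpyd at 80.02, Upb1 at 66.44, Upp2 at 29.26, Xdh at 21.59 and Gda at 4.96 CPM per kb. Among these, the ranges of Dpyd and Upb1 overlapped, and so did those of Upp2 and Xdh. In WTD the median of Upp2 stood at 9.641 CPM per kb, below that of Xdh at 19.12, and all neighbours below Uox overlapped. Lengths were the union of all annotated exons, which lowers the value of genes with many isoforms. The missing counts of nested same-strand genes, described below for Pnp, point to counting over whole gene spans, so intron reads may enter these values. Dpyd spans 870796 bases with 8884 exon bases, and Uox spans 61880 with 5007. The order per kilobase of exon is therefore a description and not a measure of transcript abundance.

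**Figure D1:**
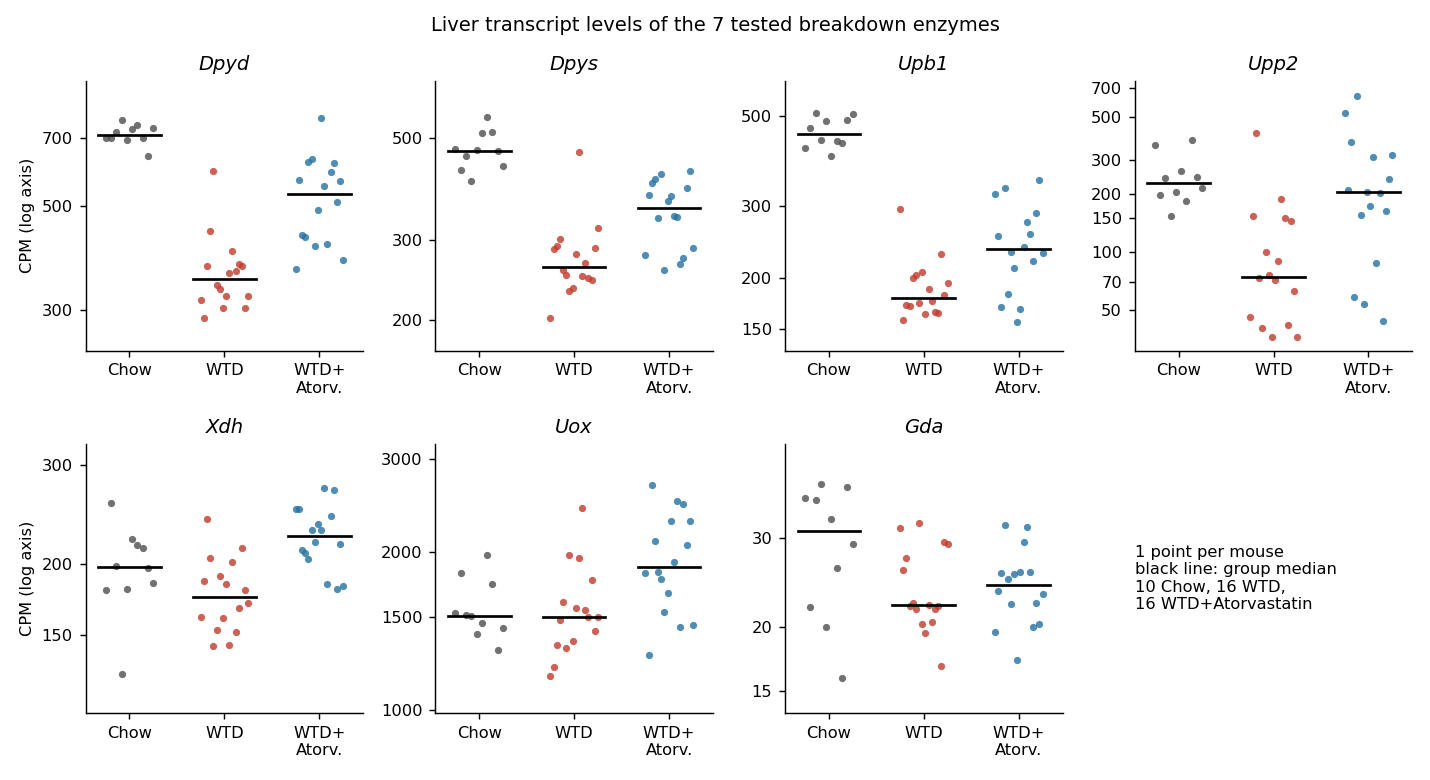
Levels of the 7 tested enzymes in each mouse, as CPM with TMM-scaled library sizes on a log axis, for 10 Chow (grey), 16 WTD (red) and 16 WTD+Atorvastatin mice (blue), with black lines at the group medians. Dpyd and Upb1 in WTD lay wholly below Chow, while the ranges of Xdh, Uox and Gda overlapped between all groups.

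The first comparison, WTD against Chow, addresses which breakdown enzymes differ in the diet-induced fatty liver. All 3 enzymes of the uracil route and Upp2 were lower in WTD than in Chow, and none of the purine enzymes tested was called. Thus 4 of 7 tested members fell at an adjusted p under 0.01, against 16.0% of all tested genes called lower and 33.5% called in either direction. The median log2 fold change of the 7 was -0.78, against 0.03 for all tested genes. Since the members were chosen with earlier results known, these values describe the set and do not test it.

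Dpyd ranged from 639.8 to 765.8 CPM in Chow around a median of 710.9. In WTD it ranged from 288.8 to 594.7 CPM with a median of 349.6. All 16 WTD mice were below the lowest Chow mouse, and the log2 fold change was -0.97 (SE 0.10), a fall of 49.1% (adjusted p = 3.7e-12, edgeR quasi-likelihood test).

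Upb1, the last enzyme of the route, showed the largest fall among those without overlap. Its level ran from 397.6 to 506.7 CPM in Chow (median 451.3) and from 157.2 to 295.0 CPM in WTD (median 178.4). Again all 16 WTD mice lay below every Chow mouse, with a log2 fold change of -1.27 (SE 0.10, edgeR adjusted p = 4e-15), or 58.4% less.

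Dpys, the ring-opening enzyme, was 403.5 to 556.6 CPM in Chow (median 470.2) and 201.6 to 467.7 CPM in WTD (median 262.0). Here 15 of 16 WTD mice were below the lowest Chow mouse, and 1 WTD mouse at 467.7 CPM lay near the Chow median. The log2 fold change was -0.78 (SE 0.09, edgeR adjusted p = 6.7e-10). Within each mouse, the ratio of Dpys to Upb1 had medians of 0.9945 in Chow, 1.454 in WTD and 1.511 in WTD+Atorvastatin. This ratio, given as a description, ran from 0.9075 to 1.301 in Chow and from 1.21 to 1.703 in WTD.

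Upp2 was the most variable tested member in both WTD groups, with a coefficient of variation of 87.32% in WTD and 70.81% in WTD+Atorvastatin, while in Chow its 30.07% was close to the 27.35% of Gda. Its level ran from 153.1 to 378.2 CPM in Chow (median 227.1) and from 36.48 to 411.4 CPM in WTD (median 74.83), so that the highest WTD mouse had over 11 times the level of the lowest, a ratio of 11.28. In WTD, 13 of 16 mice were below the lowest Chow mouse and 1 was above the highest. The log2 fold change was -1.18 (SE 0.37), and the edgeR adjusted p of 0.0095 lay just inside the threshold. The call was kept in 12 of 42 fits that left out 1 mouse, with an adjusted p between 0.00046 and 0.021. It was lost without the 8 libraries that lacked counts for many weak genes (-1.33, adjusted p = 0.017).

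The purine enzymes gave smaller values. Xdh had medians of 198.1 CPM in Chow and 175.4 CPM in WTD, with ranges of 128.1 to 256.4 and 143.4 to 240.8. Its log2 fold change of -0.15 (95% interval -0.32 to 0.03) did not pass the test (edgeR adjusted p = 0.16). For Uox the medians were 1511 CPM in Chow and 1500 CPM in WTD, and the log2 fold change was 0.00 with a 95% interval from -0.22 to 0.22 (edgeR adjusted p = 0.995). The ratio of Xdh to Uox in each mouse had medians of 0.1329 in Chow, 0.1082 in WTD and 0.1188 in WTD+Atorvastatin.

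Gda was the weakest tested member, at 15.93 to 38.38 CPM in Chow (median 30.92) and 16.80 to 32.07 CPM in WTD (median 22.11). Of 16 WTD mice, 14 lay under the Chow median, but the ranges overlapped and the log2 fold change of -0.29 (SE 0.12) missed the threshold (edgeR adjusted p = 0.047). It passed with limma-voom (-0.35, adjusted p = 0.0073), with the clock score as a covariate (-0.40, adjusted p = 0.0038) and without Chow replicate 6 (adjusted p = 0.0093).

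Marker levels of most cell types listed also differed between WTD and Chow. The summed level of 7 hepatocyte markers ran from 115400 to 171500 CPM in Chow and from 56690 to 111600 CPM in WTD, and all 7 were called lower with a median log2 fold change of -0.90. The summed level of 9 macrophage markers ran from 386.9 to 580.2 CPM in Chow and from 2305 to 4307 CPM in WTD, with 7 of 9 called higher. Cholangiocyte markers were called higher for 5 of 5, stellate cell and fibroblast markers for 4 of 7, endothelial markers for 2 of 6 with 2 lower, neutrophil markers for 2 of 2 tested, and lymphocyte markers for 0 of 5 by edgeR. Of all tested genes, 33.5% were called in either direction. No marker list was at 0 throughout a group. The part of these shifts in the falls of Dpyd, Dpys, Upb1 and Upp2 was not tested.

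**Figure D2:**
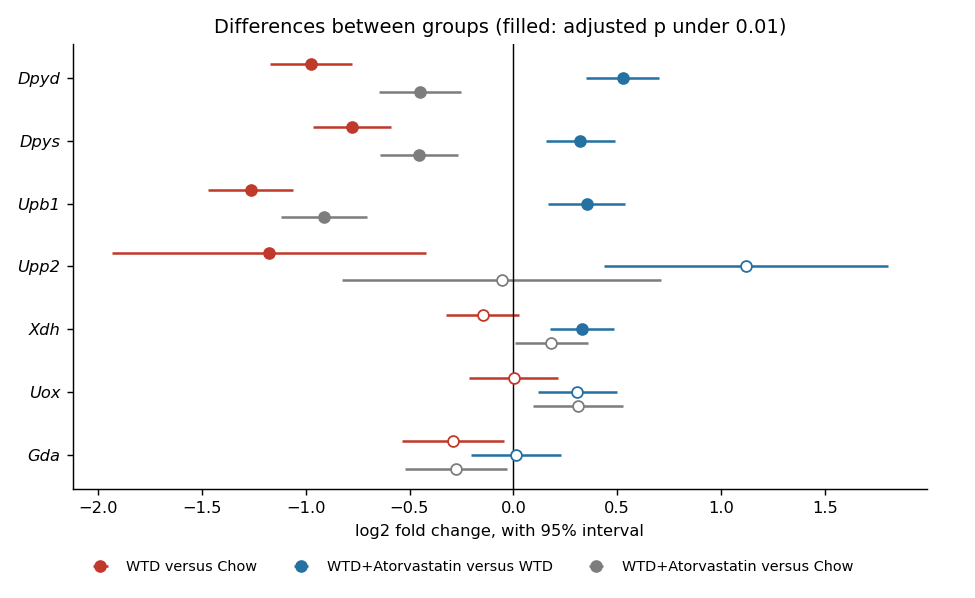
Log2 fold changes (points) with 95% intervals (bars) of the 7 tested members in WTD versus Chow (red), WTD+Atorvastatin versus WTD (blue) and WTD+Atorvastatin versus Chow (grey), with filled points for an adjusted p under 0.01. Dpyd, Dpys and Upb1 stood left of 0 on both WTD diets against Chow and right of 0 with atorvastatin against WTD, and the interval of Upp2 was the widest in each comparison.

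The second comparison, WTD+Atorvastatin against WTD, addresses which of these levels differ when the statin is added to the same diet. The uracil route was higher with atorvastatin, and so was Xdh, the enzyme that forms urate. In all, 4 of 7 tested members rose, namely Dpyd, Dpys, Upb1 and Xdh, against 4.84% of all tested genes called higher and 7.10% called in either direction. The median log2 fold change of the 7 members was 0.33, against 0.00 for all tested genes. The WTD mice are also the first group of the diet comparison, so that the 2 sets of values are not independent.

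Dpyd in WTD+Atorvastatin ran from 366.6 to 772.2 CPM around a median of 530.7. All 16 treated mice were above the WTD median of 349.6 CPM and 4 were above the highest WTD mouse. The log2 fold change was 0.53 (SE 0.09, edgeR adjusted p = 4.2e-05), an increase of 44.0%. This was the one member called in each of the 42 fits without 1 mouse and in each of 11 other fits, but not where a change of at least 1 on the log2 scale was also required.

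Xdh ran from 181.0 to 272.6 CPM with atorvastatin (median 224.4), and all 16 treated mice exceeded the WTD median of 175.4 CPM. Its log2 fold change was 0.33 (SE 0.08, edgeR adjusted p = 0.0016), called in all 42 fits without 1 mouse. Without the 8 libraries that lacked counts for many weak genes it was 0.28 and missed the threshold (adjusted p = 0.016).

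Dpys ran from 257.7 to 425.2 CPM with atorvastatin (median 351.3), and 15 of 16 treated mice were above the WTD median. Its log2 fold change was 0.32 (SE 0.08, edgeR adjusted p = 0.0049). Upb1 ran from 155.9 to 347.1 CPM (median 235.1), and 13 of 16 treated mice were above the WTD median, while 1 was below the lowest WTD mouse. This gave a log2 fold change of 0.35 (SE 0.09, edgeR adjusted p = 0.0052).

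Both of these calls were near the threshold. They were lost with RLE in place of TMM scaling (Dpys 0.28, adjusted p = 0.011, and Upb1 0.31, adjusted p = 0.013). They were also lost without the 8 libraries that lacked counts for many weak genes (Dpys 0.29, adjusted p = 0.035, and Upb1 0.34, adjusted p = 0.023). There 1 of 7 members, Dpyd, was called. RLE scaling moved the split of all called genes from 754 higher and 352 lower to 582 higher and 479 lower.

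Upp2 ran from 43.96 to 634.9 CPM with atorvastatin (median 203.6), a ratio of 14.44 between the highest and the lowest mouse. Its log2 fold change of 1.12 (SE 0.34) was the largest of the 7 members and missed the threshold (edgeR adjusted p = 0.021). It passed with DESeq2, with limma-voom (adjusted p = 0.00031), without the robust option, and without WTD replicate 15 (1.42, adjusted p = 0.00099).

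Uox ran from 1273 to 2676 CPM with atorvastatin (median 1872), and 13 of 16 treated mice exceeded the WTD median of 1500 CPM. The log2 fold change of 0.31 (SE 0.09) also missed the threshold (edgeR adjusted p = 0.019). It passed with limma-voom (adjusted p = 0.00057) and without WTD replicate 15, WTD+Atorvastatin replicate 1 or WTD+Atorvastatin replicate 4. Gda had a median of 24.24 CPM with atorvastatin and a log2 fold change of 0.01 (95% interval -0.20 to 0.23, edgeR adjusted p = 0.96).

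A single WTD animal weighed on this comparison. WTD replicate 15 was the highest of the 16 WTD mice for 6 of the 7 tested members, at 594.7 CPM for Dpyd, 467.7 for Dpys, 295.0 for Upb1, 411.4 for Upp2, 240.8 for Xdh and 2426 for Uox. Without it, 6 of 7 members were called higher with atorvastatin, all but Gda, and Uox reached a log2 fold change of 0.36 (edgeR adjusted p = 0.002). The number of all genes called rose from 1106 to 1575 without this mouse. Its library had the lowest TMM factor of the 16 WTD mice, at 0.9149 against a group median of 1.104. In this library 18.95% of the weakly expressed genes had no count, just under the cut of 20%. The part of these library traits in its values was not tested. Without WTD replicate 2, 2 of 7 members were called.

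Among treated mice, WTD+Atorvastatin replicates 1, 2, 3 and 4 held the 4 lowest values for 4 of the 7 tested members, namely Dpyd, Upb1, Upp2 and Uox. For Upp2 these 4 mice ran from 43.96 to 87.62 CPM and the next mouse stood at 156.2 CPM. For Dpyd the highest of the 4 stood at 414.5 CPM and the next mouse at 429.2 CPM. The labels do not say what the order of the animal numbers stands for.

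Marker sums moved with atorvastatin too, where 7.10% of all tested genes were called in either direction. The hepatocyte sum ran from 66480 to 136100 CPM and 4 of 7 markers were called higher, with a median log2 fold change of 0.47. The macrophage sum ran from 1680 to 3021 CPM, with 5 of 9 markers lower and 1 higher. Endothelial markers were called higher for 2 of 6, stellate cell and fibroblast markers lower for 2 of 7 and cholangiocyte markers lower for 1 of 5. The part of these shifts in the higher levels of Dpyd, Dpys, Upb1 and Xdh was not tested.

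The third comparison, WTD+Atorvastatin against Chow, shows how far the treated mice stood from the reference. Dpyd, Dpys and Upb1, that is 3 of 7 tested members, were still lower than in Chow, against 10.7% of all tested genes called lower and 25.0% called in either direction. The log2 fold changes were -0.45 (SE 0.10, edgeR adjusted p = 0.00022) for Dpyd, -0.45 (SE 0.09, adjusted p = 9.2e-05) for Dpys and -0.91 (SE 0.10, adjusted p = 2.8e-10) for Upb1. All 16 treated mice lay below the lowest Chow mouse for Upb1, 15 of 16 for Dpyd and 13 of 16 for Dpys. Against Chow, 4 of 7 hepatocyte markers were called lower, and 8 of 9 macrophage, 5 of 7 stellate cell and fibroblast and 4 of 5 cholangiocyte markers higher. Their part in the lower levels of the 3 enzymes was not tested.

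For the remaining members the difference from Chow did not pass the test. Upp2 had a log2 fold change of -0.06 with a wide 95% interval from -0.83 to 0.71 (edgeR adjusted p = 0.93). Xdh stood at 0.18 (adjusted p = 0.098) and Uox at 0.31 (adjusted p = 0.02), with 7 of 16 treated mice above the highest Chow mouse for Uox, which passed with at least 10 counts required in every mouse and without WTD+Atorvastatin replicate 4. Gda stood at -0.28 (edgeR adjusted p = 0.072), and at -0.45 with the clock score as a covariate, where it passed (adjusted p = 0.0029).

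Pnp, which acts on the nucleosides inosine and guanosine, could not be measured in these counts. It had 116 counts in all 42 mice together and was at 0 in 9 of 10 Chow, 10 of 16 WTD and 7 of 16 WTD+Atorvastatin mice. In the annotation, 85.8% of its exon bases on chromosome 14 lie within the spans of 2 same-strand genes, Gm49342 and the neighbouring paralog Pnp2, both with 0 counts in every mouse. Of 256 protein-coding genes nested in a same-strand gene without shared exon bases, 255 had 0 counts, against 222 of 811 that lie inside a gene on the opposite strand only. The values of Pnp and Pnp2 can therefore not be read as their expression. No exon base of the other 7 members lies in such a span.

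The neighbouring steps were read from lists of the same pathways. Counts for both breakdown lists are to be read beside 16.0% of all tested genes called lower on WTD and 4.84% called higher with atorvastatin. In pyrimidine breakdown beyond the members, 4 of 5 tested genes fell on WTD with a median log2 fold change of -0.75. Tymp, which splits thymidine, fell by 1.52 (SE 0.16, edgeR adjusted p = 3.2e-11), Abat, a transaminase that also acts on beta-alanine, by 1.16 (SE 0.13, adjusted p = 1.5e-10), and the semialdehyde dehydrogenase Aldh6a1 by 0.75 (SE 0.09, adjusted p = 2.6e-09). With atorvastatin, 2 of the 5 rose: Aldh6a1 by 0.51 (SE 0.08, adjusted p = 3.7e-05) and Abat by 0.61 (SE 0.11, adjusted p = 0.00019), while Tymp gave 0.27 (adjusted p = 0.23).

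Upp1, the uridine phosphorylase of most other tissues, was scarce, at medians of 1.752 CPM in Chow, 4.237 in WTD and 3.191 in WTD+Atorvastatin. Its log2 fold change on WTD was 1.60 (SE 0.60), opposite in sign to that of Upp2, and it missed the threshold (edgeR adjusted p = 0.026). It had no count in 2 Chow and 2 WTD mice.

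In purine breakdown beyond the members, all 5 tested genes fell on WTD, with a median log2 fold change of -0.72. The enzymes after Uox were among them: Urah, which hydrolyses the product of urate oxidase, fell by 0.84 (SE 0.09, edgeR adjusted p = 8.7e-11) and Urad, which completes the formation of allantoin, by 0.98 (SE 0.17, adjusted p = 2.7e-06). Mocos, which activates the molybdenum cofactor of Xdh, fell by 0.46 (SE 0.08, adjusted p = 6.4e-06), and the related aldehyde oxidase Aox3 fell by 0.72 (SE 0.08, adjusted p = 2.9e-11). Thus the genes around Xdh and Uox were called lower on WTD where Xdh and Uox themselves were not, a contrast between genes that was not tested as such.

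With atorvastatin, 1 of these 5, Mocos, rose by 0.26 (SE 0.07, edgeR adjusted p = 0.0094), while Urad gave 0.49 (adjusted p = 0.021) and Urah 0.21 (adjusted p = 0.093). Allantoicase (Allc) had no count in any mouse and Pnp2 was not measured, as described above.

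The lists that follow are to be read beside the 33.5% of all tested genes called on WTD and the 7.10% called with atorvastatin, and no list was tested against other genes. Of 13 tested genes of purine synthesis, 1 rose and 2 fell on WTD with a median of 0.10: Adss rose by 0.28 (SE 0.09, edgeR adjusted p = 0.0092), and Paics fell by 0.46 (SE 0.07, adjusted p = 6.2e-07) and Pfas by 0.53 (SE 0.16, adjusted p = 0.0042). Of 11 genes of pyrimidine synthesis, 2 rose and none fell, with a median of -0.01: Cad, which starts the route, rose by 0.80 (SE 0.18, adjusted p = 0.00031) and Ctps2, which forms cytidine triphosphate, by 0.73 (SE 0.12, adjusted p = 1.2e-06). With atorvastatin none of these 24 genes was called, and the smallest adjusted p was 0.04 for Paics (0.19), followed by 0.18 for Umps (0.20) and 0.2 for Gmps (0.18).

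Of 11 salvage kinases and phosphoribosyltransferases, 1 was higher and 4 were lower on WTD. The uridine kinase Uck1 fell by 0.83 (SE 0.11, edgeR adjusted p = 2.7e-08) and rose with atorvastatin by 0.45 (SE 0.10, adjusted p = 0.0016). Thymidine kinase Tk1 fell by 1.16 (SE 0.20, adjusted p = 4.8e-06) and adenosine kinase Adk by 0.38 (SE 0.08, adjusted p = 4.2e-05). With atorvastatin, Aprt (-0.35, edgeR adjusted p = 0.019) and Dguok (0.34, adjusted p = 0.031) missed the threshold.

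Nucleotidases and deaminases went both ways, with 5 of 13 higher and 2 lower on WTD. Cytidine deaminase (Cda) fell by 0.93 (SE 0.17, edgeR adjusted p = 6.7e-06) and the surface nucleotidase Nt5e by 0.83 (SE 0.16, adjusted p = 2.1e-05), while Samhd1, which cleaves deoxynucleotides, rose by 0.55 (SE 0.08, adjusted p = 4.8e-08). With atorvastatin 1 was called: Nt5c fell by 0.45 (SE 0.09, adjusted p = 0.00069), while Nt5c2 (-0.32, adjusted p = 0.023) and Nt5c3b (-0.53, adjusted p = 0.037) missed the threshold.

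Among transporters of nucleosides and urate, 5 of 11 fell and 2 rose on WTD. The organic anion carrier Slc22a7 fell by 2.77 (SE 0.20, edgeR adjusted p = 3.1e-16) and Slc17a3 by 1.71 (SE 0.10, adjusted p = 4.1e-20), while the lysosomal nucleoside carrier Slc29a3 rose by 2.17 (SE 0.26, adjusted p = 2.7e-09). With atorvastatin 3 rose: the nucleoside carrier Slc29a1 by 0.61 (SE 0.13, adjusted p = 0.00075), the urate carrier Slc2a9 by 0.52 (SE 0.12, adjusted p = 0.0018) and Slc17a3 by 0.33 (SE 0.09, adjusted p = 0.008).

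Of 8 tested ectonucleotidases and phosphatases, which act on extracellular nucleotides, 2 rose and 1 fell on WTD, near the share of all genes. Entpd1 rose by 1.80 (SE 0.16, edgeR adjusted p = 9e-14) and Entpd2 by 2.15 (SE 0.46, adjusted p = 0.00013), and Entpd8 fell by 1.34 (SE 0.11, adjusted p = 1.6e-14). With atorvastatin Entpd8 rose by 0.50 (SE 0.10, adjusted p = 0.00036) and Entpd5 by 0.36 (SE 0.10, adjusted p = 0.006).

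**Figure D3:**
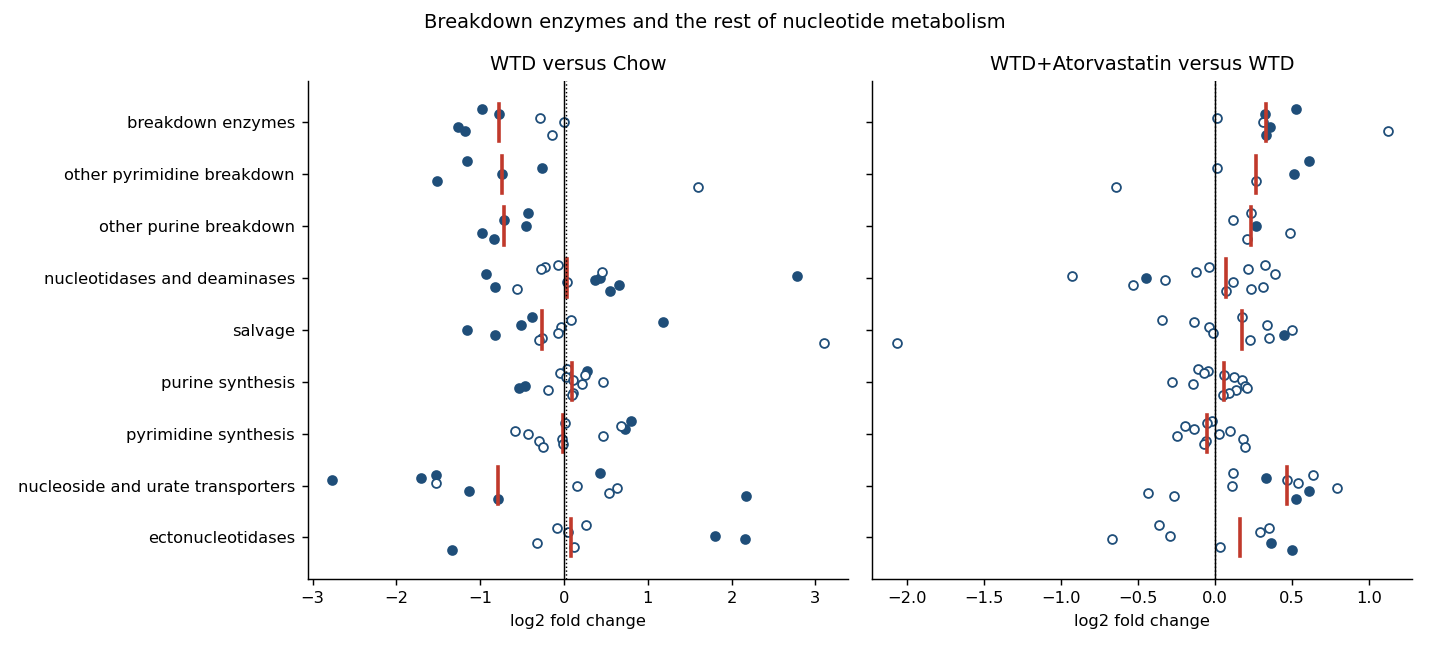
Log2 fold changes of the 7 tested breakdown enzymes and of 8 lists of related genes in WTD versus Chow (left) and WTD+Atorvastatin versus WTD (right). Each point is a gene, filled at an adjusted p under 0.01, red bars are list medians, and the dotted line is the median of all 15574 tested genes; the breakdown lists had medians of -0.78, -0.75 and -0.72 on WTD, and the lists of purine and pyrimidine synthesis 0.10 and -0.01.

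Members also varied together between mice of the same group. Of the 21 pairs of tested members, 20 had correlated deviations from the group mean of log2 CPM over 42 mice (Pearson, permutation within groups, adjusted p under 0.05). The exception was Uox with Gda (r = 0.276, rho = 0.212, permutation p = 0.057 and 0.17). Across the other tested genes, the median r with a member lay between -0.05 and 0.01 and the 95th percentile between 0.378 and 0.532. Each pair among Dpyd, Dpys, Upb1, Upp2 and Uox, at 0.547 or more, lay above the highest of these percentiles, while the pairs with Xdh or Gda lay below it. The percentile of Xdh itself was 0.402. Its pairs with Dpyd (0.451), Upb1 (0.46) and Gda (0.488) exceeded that value, and those with Dpys, Upp2 and Uox did not. For Gda the percentile was 0.378. Its pairs with Dpys (0.491), Upb1 (0.519), Upp2 (0.415) and Xdh exceeded it, and those with Dpyd and Uox did not. All genes of a library share its scaling, RNA and cell composition.

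The closest pair was Upb1 with Upp2, at r = 0.845 and rho = 0.829, each with a permutation p of 1e-05, the smallest that the permutations can give (adjusted p = 3.5e-05 and 4.2e-05). It was 0.644 in Chow, 0.861 in WTD, 0.865 in WTD+Atorvastatin and 0.865 without the 2 mice farthest from the median of Upb1. Upp2 with Uox followed at r = 0.811 and rho = 0.75 (permutation p of 1e-05 for both), with 0.758, 0.725 and 0.894 in the same order of groups and 0.764 without the 2 farthest mice.

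For each pair among Dpyd, Dpys and Upb1, r was lower in Chow, with 10 mice, than in either WTD group. Dpyd with Upb1 had r = 0.756 and rho = 0.61 (permutation p = 1e-05 and 0.00012). It was positive in each group, at 0.364 in Chow, 0.651 in WTD and 0.844 in WTD+Atorvastatin, and 0.657 without the 2 farthest mice. Dpyd with Dpys had r = 0.648 and rho = 0.465 (permutation p = 0.00011 and 0.0048, adjusted p = 0.00026 and 0.0075), with -0.373 in Chow, 0.536 in WTD and 0.854 in WTD+Atorvastatin, and 0.470 without the 2 farthest mice. Dpys with Upb1 had r = 0.751 and rho = 0.684 (permutation p of 1e-05 for both), with 0.103 in Chow, 0.779 in WTD, 0.852 in WTD+Atorvastatin and 0.703 without the 2 farthest mice. Whether these correlations differ between groups was not tested.

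**Figure D4:**
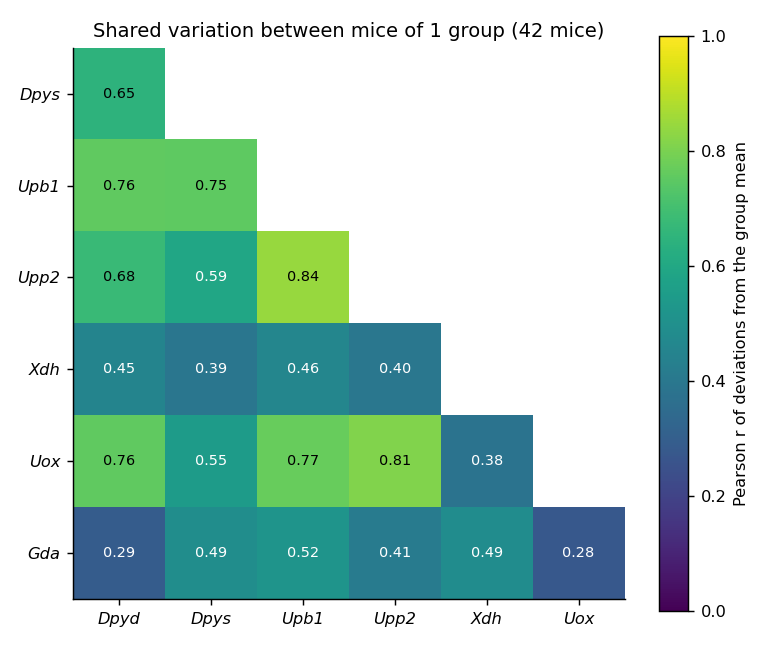
Pearson r of the deviations of log2 CPM from the group mean over 42 mice, for each of the 21 pairs of tested members. Pairs among Dpyd, Dpys, Upb1, Upp2 and Uox ranged from 0.547 to 0.845, and Gda with Uox was lowest at 0.276.

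The 3 genes closest to Dpyd in this measure were Ahcy (r = 0.906), Slc27a5 (0.904) and Mat1a (0.896), enzymes of methionine metabolism and bile acid conjugation. For Dpys they were Sec14l2 (0.881), Gm4756 (0.864) and Proz (0.863), for Upb1 they included Kng1 (0.879) and Pbld1 (0.875), and for Upp2 they were the glutamine carrier Slc38a3 (0.889), the corticosteroid-binding globulin Serpina6 (0.867) and the non-coding 0610005C13Rik (0.866).

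Genes close to Uox were Inmt (0.836) and Slc38a4 (0.830). For Xdh the first were Ndst1 (0.743), Usp8 (0.718) and Hdlbp (0.715), and for Gda Cul4a (0.648), Dglucy (0.639) and Gsk3a (0.632). Upb1 and Upp2 ranked high in each other's list, at rank 11 for Upp2 among the 15573 genes compared with Upb1 and rank 9 for Upb1 among those compared with Upp2. Ranks of members ran from 5, for Upp2 in the list of Uox, to 2182, for Gda in the list of Dpyd. Dpys ranked 411 in the list of Dpyd, and Dpyd ranked 372 in the list of Dpys.

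Of 4 scores of each library, the clock score and the sums of hepatocyte and macrophage markers were related to members within groups, and the share of weak genes without counts was not. The clock score is the mean z of Arntl, Npas2 and Clock minus that of Dbp, Nr1d1, Nr1d2, Tef and Ciart, genes of the circadian clock. Per3 was also listed for this score but had 0 counts in every mouse and did not enter it. The time of day at sampling is not given in the sources used here. Of 28 relations of 7 members with 4 library scores, Upp2 with the clock score was the strongest, at r = -0.784 and rho = -0.804 (permutation p of 1e-05 for both, the smallest possible, adjusted p = 5.6e-05 and 0.00014). It was -0.732 in Chow, -0.821 in WTD, -0.839 in WTD+Atorvastatin and -0.767 without the 2 farthest mice. In Chow the clock score fell in separate sets, with 4 mice at -0.815 to 0.023 and 6 mice at 1.907 to 2.661, so the value of Chow rests on that split.

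Uox (r = -0.639, rho = -0.639, permutation p = 1e-05 and 4e-05) and Upb1 (r = -0.604, rho = -0.621, permutation p of 2e-05 for both) had the next largest values with the clock score. Their values were -0.496 and -0.665 in WTD, -0.747 and -0.655 in WTD+Atorvastatin, and -0.639 and -0.544 without the 2 farthest mice. Group medians of the clock score also differed, at 1.931 in Chow, 0.467 in WTD and -0.3735 in WTD+Atorvastatin. Of the genes in the score, only Clock was called between WTD and Chow (-0.66, edgeR adjusted p = 1.6e-05). The score may therefore hold differences between diets as well as sampling times, which cannot be told apart here.

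With the clock score as a covariate, the differences of Upp2 became -2.07 (SE 0.26, edgeR adjusted p = 1.5e-08) for WTD against Chow, 0.76 (SE 0.22, adjusted p = 0.016) for WTD+Atorvastatin against WTD, and -1.31 (SE 0.28, adjusted p = 0.00035) for WTD+Atorvastatin against Chow. In that fit Dpyd kept its call in all 3 comparisons, at -1.05, 0.48 and -0.57. Dpys and Upb1 lost theirs for atorvastatin against WTD, at 0.28 (adjusted p = 0.013) and 0.27 (adjusted p = 0.016), and Uox stood at -0.15, 0.21 and 0.06 without a call.

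**Figure D5:**
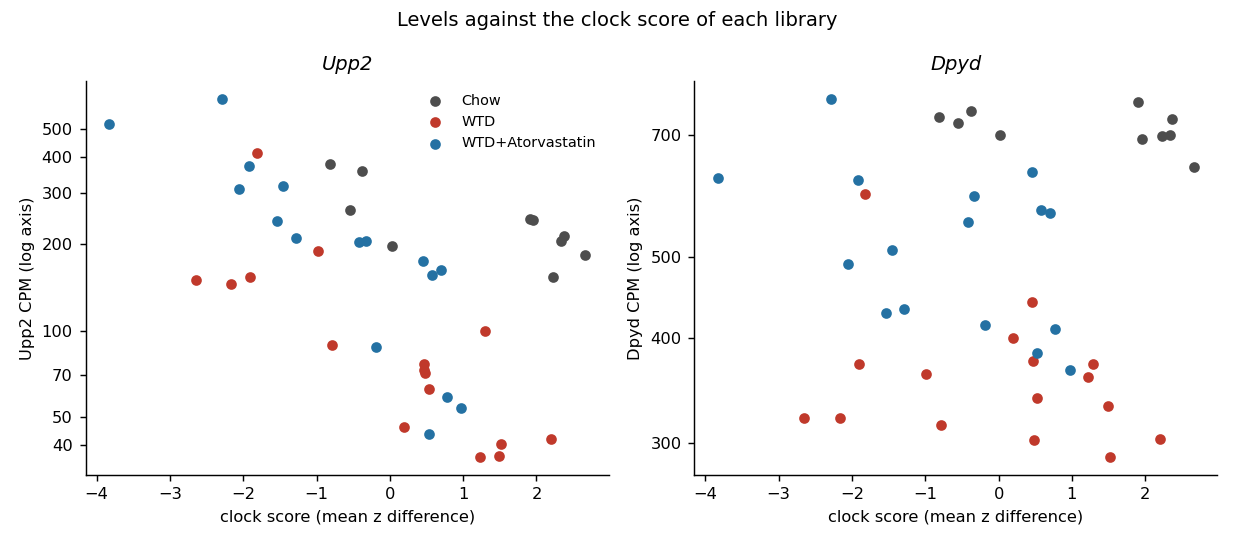
Levels of Upp2 (left) and Dpyd (right) in CPM on a log axis against the clock score of the same library, with 1 point per mouse. Upp2 fell with a higher score in each group (r = -0.732 in Chow, -0.821 in WTD and -0.839 in WTD+Atorvastatin), and for Dpyd r was -0.431, -0.278 and -0.436.

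The hepatocyte marker sum went with Dpys and Upb1 in both WTD groups but not in Chow, where r was -0.376 and -0.586. The sum is of unscaled CPM and is mostly Alb, so its r values weigh Alb far above the other markers. For Dpys and Upb1, r was 0.836 and 0.805 in WTD and 0.922 and 0.901 in WTD+Atorvastatin. This pattern was not particular to the uracil route. In Chow, WTD and WTD+Atorvastatin, r was -0.135, 0.595 and 0.766 for Upp2, and -0.297, 0.781 and 0.773 for Uox. For Xdh these values were 0.109, 0.695 and 0.24. The difference between groups was not tested. Over 42 mice the hepatocyte sum had r = 0.761 and rho = 0.706 with Dpyd (permutation p of 1e-05 for both, adjusted p = 5.6e-05 and 0.00014). For Dpyd r was 0.004 in Chow, 0.799 in WTD and 0.845 in WTD+Atorvastatin, and 0.704 without the 2 farthest mice. With Gda the hepatocyte sum had r = 0.105 and rho = 0.072 (permutation p = 0.48 and 0.64), at -0.722 in Chow, 0.384 in WTD and 0.452 in WTD+Atorvastatin. The macrophage marker sum was negatively related to all 7 tested members by Pearson's r, from -0.611 for Dpyd (rho = -0.549, permutation p = 5e-05 and 0.00029, adjusted p = 0.00016 and 0.0012) to -0.360 for Gda (rho = -0.348, permutation p = 0.019 and 0.029, adjusted p = 0.036 and 0.053). For Dpyd it was -0.411 in Chow, -0.542 in WTD, -0.764 in WTD+Atorvastatin and -0.546 without the 2 farthest mice. For Gda these values were -0.658, -0.156, -0.340 and -0.334. The share of weakly expressed genes without counts was related to none of the 7 members at an adjusted p under 0.05, with r between 0.002 and 0.232.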

How the data were processed

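Poly(A) RNA libraries, strand-specific and paired-end, were aligned by the authors to GRCm38 with STAR 2.5 after trimming, and HTSeq 0.6.1p1 gave the deposited counts, whole read pairs per gene of GENCODE vM19 without normalization. The 42 single tables equal the joint table, no column lacked a sample, and 5 summary lines naming no gene were left out (no feature 1.998% to 2.778%, ambiguous 5.43% to 6.568% of pairs). Symbols, positions and exon lengths came from GENCODE vM21 (54409 of 54446 identifiers found).

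Counts were filtered with filterByExpr (minimum 10, total 15), TMM-scaled and fitted in edgeR 4.0.16 (R 4.3.3, quasi-likelihood, robust) over all 42 mice in 3 groups. Adjusted p values (Benjamini-Hochberg over 15574 genes) under 0.01 were called, and intervals (95%) used 39 residual degrees of freedom. The labels give 1 mouse per library. Correlations used log2 CPM (prior count 2), group means removed, and 100000 permutations within groups (Python 3.11.15). Members and lists were chosen with earlier results of these data known. Named genes were the members, per pathway list the 3 lowest p values of WTD versus Chow and of WTD+Atorvastatin versus WTD, the 3 genes closest to each member, and Upp1, Pnp2, Urah, Urad, Allc and Mocos. Alternatives were DESeq2 1.42.0, limma-voom 3.58.1 with quality weights, other scalings, filters, thresholds, sample sets and covariates, and leaving out each mouse. Scripts were tested on simulated data. One hepatocyte marker listed was not analysed here. Among the genes closest to Upb1 and Uox, 1 is not reported here.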

Additional observations from a re-analysis of the deposited data

How the results depend on the processing

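No paired analysis was possible because the replicate numbers only name samples. Of the values for single members under other settings, 228 kept their direction and side of the threshold, 21 lost and 13 gained a call and 11 changed sign; the causes were not tested. Dpyd was called in all 3 comparisons, and Dpys and Upb1 in both comparisons with Chow, under the 11 other fits and without any 1 of 42 mice. Requiring a log2 fold change of at least 1 left 2151 genes and 2 members for WTD versus Chow, 100 genes and 0 members for WTD+Atorvastatin versus WTD, and 1288 genes and 0 members for WTD+Atorvastatin versus Chow. For WTD+Atorvastatin versus WTD, limma-voom called 3118 genes and an adjusted p under 0.05 gave 2021, against 1106. In that comparison the members called were 2 with RLE scaling, 2 with only the 2 groups fitted, 1 without the 8 libraries that lacked counts for many weak genes and 2 with the clock score as a covariate, and for WTD+Atorvastatin versus Chow 5 with the clock score. DESeq2 called 706 genes higher and 689 lower with atorvastatin, against 754 and 352. Uox in WTD versus Chow, at 0.00 in the fit reported, became -0.069 with limma-voom, -0.00035 with upper-quartile scaling, -0.039 without the 8 libraries, -0.00016 without the 20 most abundant genes and -0.151 with the clock score. Gda in WTD+Atorvastatin versus WTD became -0.028 with DESeq2 and with RLE, -0.012 with upper-quartile scaling, -0.025 with at least 10 counts in every mouse, -0.005 without the 8 libraries and -0.053 with the clock score. Leaving out 1 mouse gave 4952 to 5384 genes and 3 to 4 members for WTD versus Chow, 913 to 1575 genes and 2 to 6 members for WTD+Atorvastatin versus WTD, and 3651 to 4101 genes and 3 to 4 members for WTD+Atorvastatin versus Chow. The same removals gave -0.053 to 0.043 for Uox in WTD versus Chow, -0.016 to 0.046 for Gda in WTD+Atorvastatin versus WTD and -0.231 to 0.036 for Upp2 in WTD+Atorvastatin versus Chow. Of the 21 pairs of members, 19 to 20 stayed correlated with Spearman's rho, RLE scaling, a prior count of 0.5 or without the 8 libraries.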
